A study of Mus musculus with 70 samples.

Results

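The genes described here are 10 genes used as markers of astrocytes: Gfap, Aqp4, Aldh1l1, Slc1a2, Slc1a3, Gja1, Slc6a11, Agt, Gdf10 and Slc7a10. They were taken by name, and all 10 were found among the 34677 genes of the gene-level table of TPM, a unit scaled for transcript length and library size, so that levels may be compared between genes. All 10 passed the filter on low counts and entered every test. The members were followed over 24 groups and separated into general astrocyte genes and region-restricted ones by how many times the top region mean exceeded the bottom one over 18 adult regions.

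Astrocytes take up transmitters released at synapses, buffer water and potassium, couple to one another through gap junctions and supply metabolites to neurons. The uptake of glutamate is carried by the transporters encoded by Slc1a2 (GLT-1) and Slc1a3 (GLAST), and astrocytic uptake of GABA by that of Slc6a11 (GAT-3). Astrocytes of different regions are known to differ in their gene expression, with Bergmann glia, the radial astrocytes of the cerebellar cortex, and fibrous astrocytes of white matter as classical examples.

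RNA was measured in bulk by strand-specific mRNA sequencing in 70 libraries. The mice were C57BL/6NTac. Adult males at P56 gave 57 libraries by punching 18 regions, and embryos at E14.5 gave 9. A further 4 libraries came from cultured embryonic stem cells (mESC), a pair for each of the C57BL/6 lines B6-1 and B6-2. The mice and embryos carried no transgene and received no treatment. The mESC were collected from feeder-free culture in medium with leukemia inhibitory factor and added inhibitor compounds. The adult regions were the arcuate (ARH), dorsomedial (DMH), paraventricular (PVH) and ventromedial (VMH) hypothalamic nuclei and the lateral hypothalamic area (LHA); in the hindbrain, the parabrachial nucleus (PB), the dorsal vagal complex (DVC) and the solitary tract nucleus (NTS); the anterior cingulate (ACA), frontal pole (FRP) and entorhinal (ENT) cortex; the cerebellar lobules CENT2 (central), CUL4-5 (culmen), UVU (uvula) and FL (flocculus); the cerebellar nuclei (CBN); the nucleus accumbens (ACB); and the ventral tegmental area (VTA). Each had 2 to 4 libraries, each pooled from 3 or 4 mice, with 1 ACB library from a single mouse. The embryonic regions were forebrain (F, 1 library), hindbrain (H, 3), midbrain (M, 2) and the combined terminal and peduncular hypothalamus (THy-PHy, 3), each library pooled from 4 embryos. Mice contributed to several regions, so libraries of different regions were not independent animals. In punches of mixed tissue, fewer astrocytes and less RNA of a gene per astrocyte cannot be told apart.

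Total estimated counts per library ran from 13409041 to 20647884 in the adult brain, from 9074581 to 22229582 in the embryonic brain and from 12985081 to 18501667 in mESC. A pair of libraries stood apart in the share of TPM on mitochondrial genes: VTA replicate 1 (39.6%) and H replicate 1 (22.6%), beside a median of 7.49%. Aldoc, the defining marker of a list of 24 other astrocyte genes, was present in every adult library, and the geometric mean of that list ranged over adult regions from 98.3 in ACA to 202 TPM in CBN.

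Of the 10 genes, 3 were general by the limit of a 4-fold range and 7 were region-restricted. The highest adult region mean exceeded the lowest 1.84 ± 0.213 times for Aldh1l1, 2.51 ± 0.323 times for Gja1 and 2.95 ± 0.555 times for Slc1a2 (± is the SD propagated from the libraries of both regions). Slc7a10, at 4.84 ± 0.664, was the gene just inside the limit and Slc1a2 the one just outside it. The ratio was 8.69 ± 2.70 for Aqp4, 9.58 ± 1.59 for Slc1a3, 13.9 ± 10.4 for Gfap and 16.6 ± 7.90 for Slc6a11. It reached 107 ± 16.9 for Agt and 231 ± 122 for Gdf10. Among the 13922 genes with at least 5 TPM in 1 adult region, the median ratio was 2.66 and 31.9% reached 4; the median over the 10 genes was 9.13. The classes are a description of the levels and rest on no test.

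**Figure D1:**
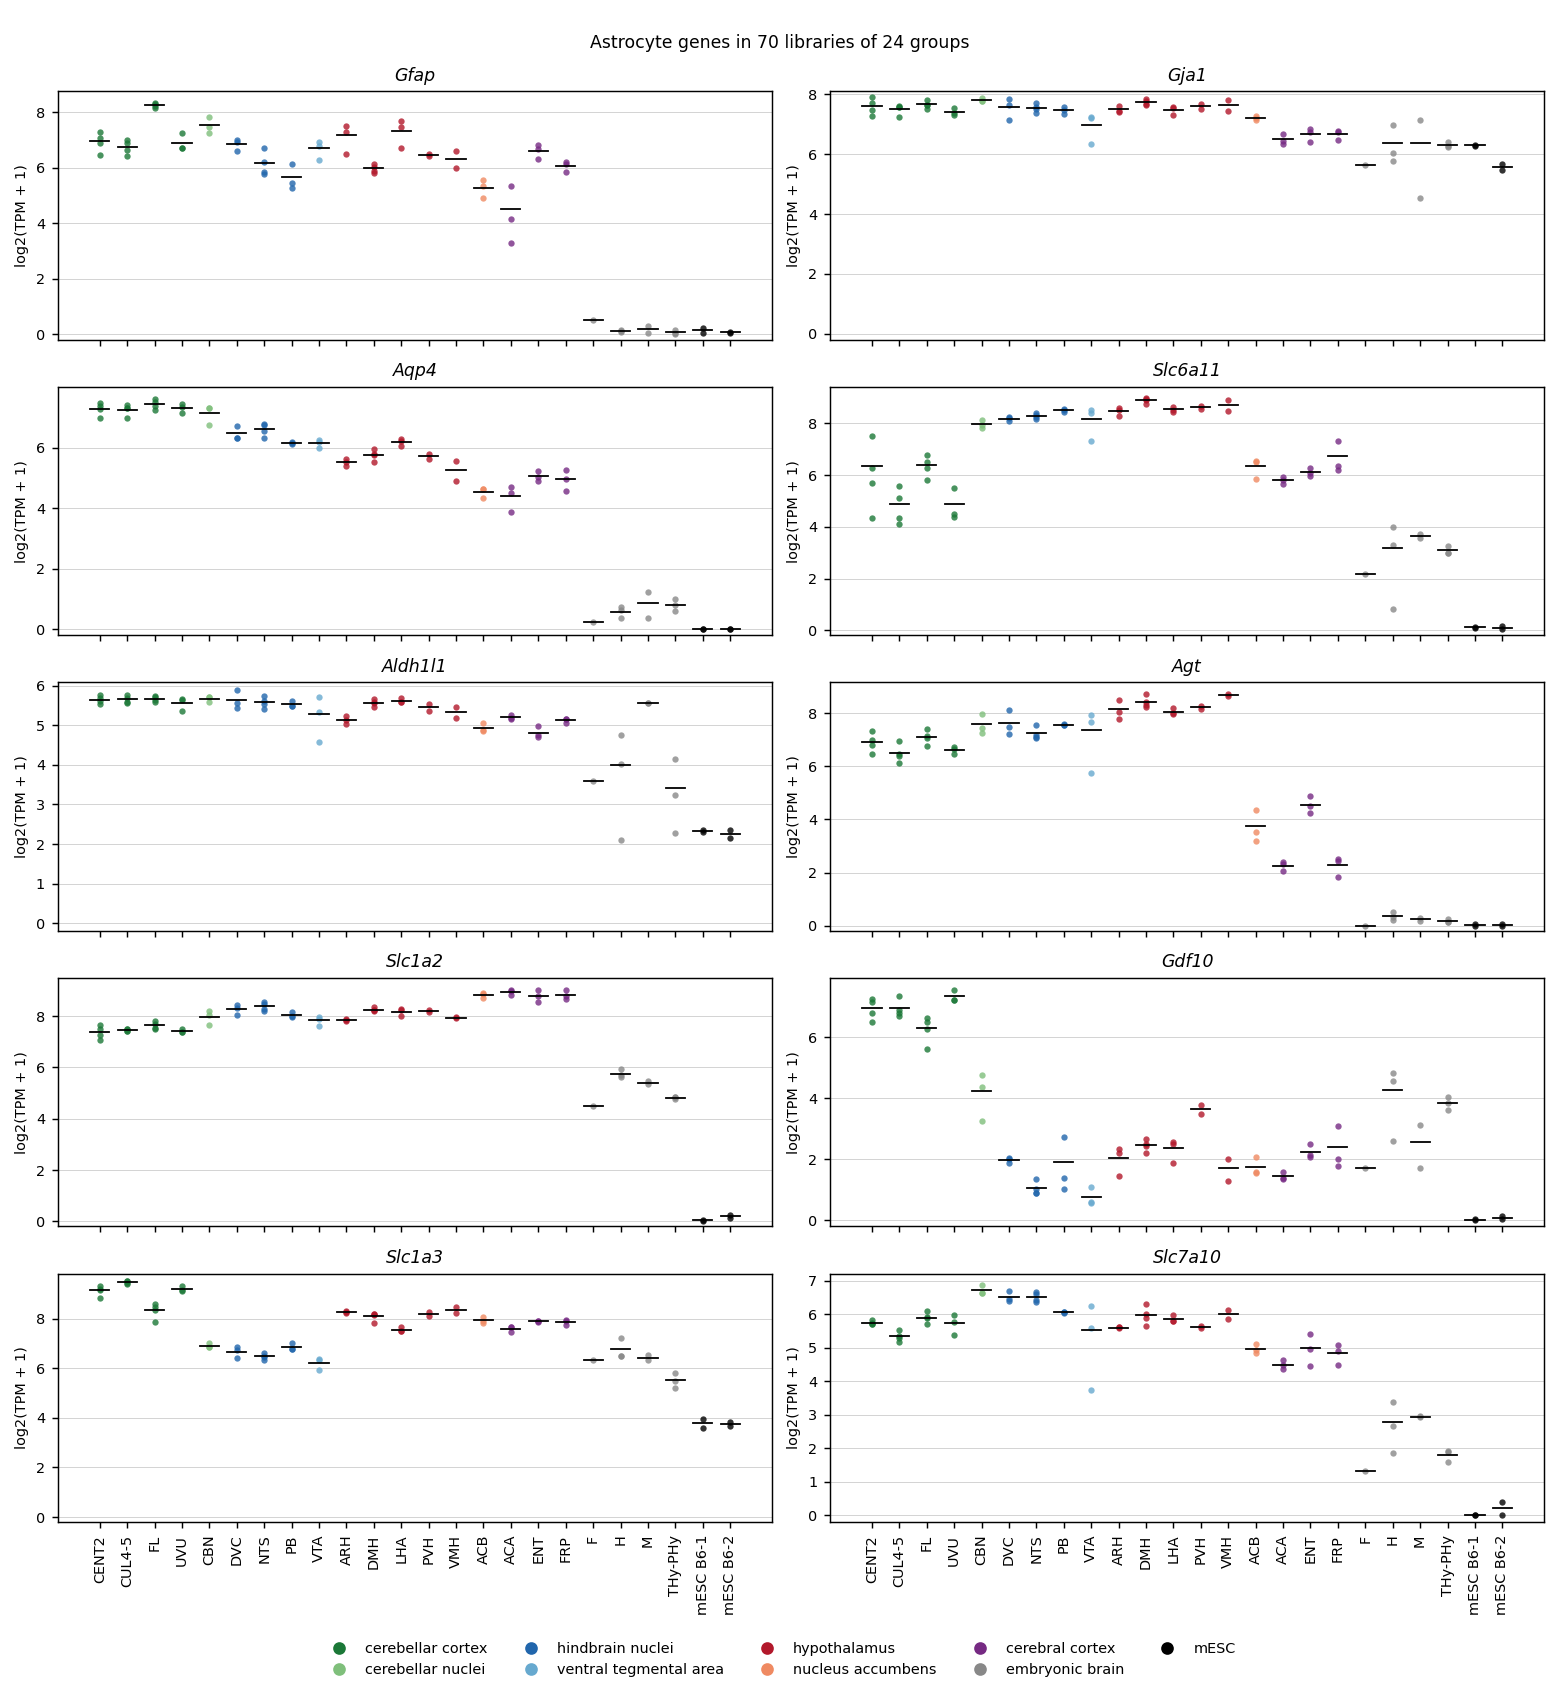
Level of each gene, as log2(TPM + 1) on the vertical axis, in all 70 libraries by group; points are libraries, coloured by brain system, and bars are group means. Gdf10 stands above the other adult regions in the 15 cerebellar cortex libraries, Agt is low in the 9 cerebral cortex and 3 ACB libraries, and Gfap, Aqp4 and Agt lie near 0 in the embryonic and mESC libraries.

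Aldh1l1, which encodes a folate-metabolising enzyme used as a pan-astrocyte marker, had the narrowest range of the 10 genes. Its adult region means ran from 27.2 ± 2.84 TPM (SD, n = 3) in ENT to 50.2 ± 2.51 TPM (SD, n = 3) in CBN. The 3 ENT libraries held 25.1, 30.4 and 26.1 TPM and the 3 CBN libraries 51.4, 51.9 and 47.3 TPM, and these did not overlap. Between neighbours in the order of the 18 regions the libraries overlapped in all 17 steps. The widest spread within a region was in VTA, whose libraries held 22.9, 51.6 and 39.7 TPM, the first of these being the library with the high mitochondrial share. Aldh1l1 was called in none of the 7 comparisons within the adult brain.

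Gja1, the gene of connexin 43, the main gap junction protein of astrocytes, had its lowest region means in the cerebral cortex. The cerebral cortex ranged over 79.7 to 113 TPM, with a median of 101 over 9 libraries, and region means elsewhere in the adult brain lay between 126 (VTA) and 223 TPM (CBN). In ACA the libraries held 79.7, 85.8 and 101 TPM, in FRP 107, 87.4 and 107 TPM and in ENT 106, 113 and 82.9 TPM, all below the 3 ACB libraries at 141, 145 and 155 TPM. The VTA libraries held 79.4, 147 and 151 TPM, the first, with the high mitochondrial share, being the lowest of the adult brain. The cortical difference passed the adjusted p but not the fold limit (log2 fold change -0.80 ± 0.10 (SE), adjusted p = 9.92e-10, edgeR quasi-likelihood test), and no adult comparison called Gja1.

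Slc1a2, the glutamate transporter that carries most glutamate uptake in the forebrain, was highest in the cerebral cortex and ACB, where Aldh1l1 and Gja1 had low levels. In ACA its libraries held 522, 448 and 496 TPM and in ACB 467, 476 and 417 TPM. In CENT2, the lowest region, they held 199, 179, 134 and 152 TPM. The cerebral cortex held 373 to 522 TPM, with a median of 448 over 9 libraries. The cerebellar cortex lay wholly below it, at 134 to 225 TPM, with a median of 179 over 15 libraries. Hypothalamic region means lay between, at 229 to 304 TPM, and hindbrain ones at 262 to 330.4 TPM. Over the 18 adult region means of log2(TPM + 1), its Pearson r was -0.83 with Aqp4, -0.70 with Gdf10 and -0.65 with Aldh1l1; these are descriptions over regions that share mice and scaling.

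**Figure D2:**
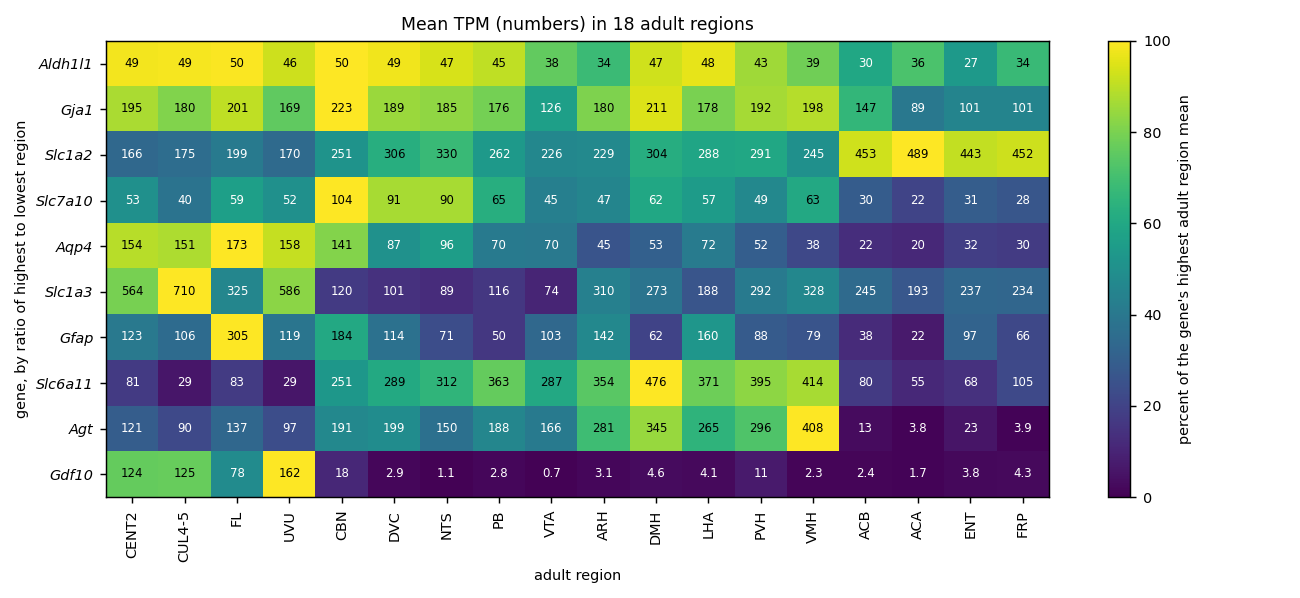
Mean TPM of each gene (numbers) in the 18 adult regions (columns), with colour giving the percent of the gene's own highest region mean; genes are ordered by the highest over the lowest region mean, smallest at the top. Aldh1l1 stays between 27.2 and 50.2 TPM, while Gdf10 runs from 0.702 TPM in VTA to 162 TPM in UVU.

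Slc7a10 encodes Asc-1, a transporter of small neutral amino acids that also carries D-serine. It was highest in CBN, at 116, 98.04 and 98.9 TPM, followed by DVC at 86.1, 102 and 83.99 TPM and NTS at 99.5, 95.8, 85.4 and 81.2 TPM. It was lowest in ACA, at 19.6, 23.7 and 21.4 TPM. The CBN and ACA libraries did not overlap, whereas DVC and NTS could not be ordered. VTA replicate 1 held 12.4 TPM, below every other adult library, beside 74.9 and 47.5 TPM in the other VTA libraries.

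Aqp4, the water channel of astrocyte endfeet, was highest in the cerebellum and lowest in ACA and ACB. Region means were 151 to 173 TPM in the cerebellar cortex, 141 TPM in CBN, 70.3 to 96.3 TPM in the hindbrain nuclei and 37.5 to 71.7 TPM in the hypothalamus. In ACB the libraries held 24.03, 19.4 and 23.8 TPM and in ACA 21.5, 13.5 and 24.7 TPM. All 15 cerebellar cortex libraries (lowest 124 TPM) lay above all 9 of the cerebral cortex (highest 37.4 TPM). Within the cerebellar cortex the 4 lobules overlapped.

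Slc1a3, the glutamate transporter characteristic of Bergmann glia and of radial glia, was highest in 3 of the 4 cerebellar lobules. The CUL4-5 libraries held 679, 738, 726 and 698 TPM, the UVU libraries 632, 568 and 558 TPM and the CENT2 libraries 455, 641, 594 and 566 TPM. FL was lower, at 389, 323, 354 and 234 TPM, and overlapped VMH (297 and 359 TPM). The lowest region means were those of VTA, at 60.3, 80.1 and 81.9 TPM, and NTS, at 89.3, 80.6, 87.4 and 98.2 TPM. CUL4-5 lay above UVU without overlap, and all libraries of CENT2 above all of VMH. The glutamate transporters thus had different orders: the ratio of the Slc1a3 to the Slc1a2 mean was above 1 in each cerebellar lobule and in ARH and VMH, about 1 in PVH (292 against 291 TPM), and below 1 in the other 11 regions, as the means in the heat map show.

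Gfap, the intermediate filament protein of fibrous and reactive astrocytes, was highest in FL. The FL libraries held 299, 320.4, 315 and 285 TPM, all above the next region, CBN, at 175, 153 and 224 TPM. The other lobules held less: 132, 155, 87.8 and 119 TPM in CENT2, 125, 84.6, 99.6 and 116 TPM in CUL4-5 and 149, 103 and 103 TPM in UVU. The lowest region was ACA, at 16.9, 8.72 and 39.97 TPM, where the highest library held over 4 times the lowest, and without ACA replicate 3 the range of Gfap over regions was 23.8-fold. Below FL, neighbouring regions overlapped at each of the remaining 16 steps. The summed level of 6 oligodendrocyte markers was 10383 TPM in FL, against 1922, 2273 and 2882 TPM in CENT2, CUL4-5 and UVU, and 15518 TPM in CBN. Meningeal markers summed to 204 TPM in FL, against 109, 132 and 125 TPM in the same lobules, and 199 TPM in CBN. Over the 18 adult regions the Pearson r of Gfap was 0.38 with the oligodendrocyte sum and 0.76 with the meningeal sum. The part of either in the Gfap levels was not tested.

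Slc6a11, the GABA transporter, was high in the hypothalamus, hindbrain nuclei, CBN and VTA and low in the cerebellar and cerebral cortex and ACB. Its level in the 5 hypothalamic regions was 312 to 498 TPM, with a median of 393 over 14 libraries, with DMH highest at 496, 484, 426 and 498 TPM. The hindbrain libraries held 269 to 373 TPM, with a median of 314 over 10 libraries. In the cerebral cortex the range was 49.4 to 159.8 TPM, with a median of 66.5 over 9 libraries and in ACB the libraries held 93.04, 57.2 and 90.2 TPM. The cerebellar lobules were the most uneven group: CENT2 held 180.4, 75.6, 19.02 and 50.4 TPM, CUL4-5 46.5, 16.4, 19.3 and 33.4 TPM, UVU 44.1, 19.96 and 21.8 TPM and FL 77.2, 90.4, 55.8 and 109 TPM. CBN, which lies under these lobules, held 279, 247 and 227 TPM, above every library of the lobules.

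Agt encodes angiotensinogen, the precursor of angiotensin peptides, which astrocytes make in the brain. It was highest in the hypothalamus, where the VMH libraries held 416 and 399 TPM and the DMH libraries 319, 296, 419.9 and 344 TPM, and all 14 hypothalamic libraries lay between 217 and 419.9 TPM. At the other end, ACA held 3.13, 3.99 and 4.26 TPM, FRP 2.59, 4.41 and 4.70 TPM, ACB 19.2, 8.17 and 10.4 TPM and ENT 17.9, 21.4 and 28.4 TPM. The gap between CUL4-5 (83.6, 122, 69.1 and 86.8 TPM) and ENT was one of 2 breaks in the order of the 18 regions at which the libraries did not overlap; the other lay between ACB and FRP. Thus 14 regions with means from 90.3 TPM upwards were joined by overlapping neighbours, and 4 forebrain regions had means of 22.6 TPM or less.

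Gdf10 encodes a secreted ligand of the TGF-beta family, and was the most restricted of the 10. UVU held 189, 149 and 149 TPM, CUL4-5 111, 164, 119 and 104 TPM, CENT2 90.8, 141, 153 and 112 TPM and FL 97.7, 77.2, 89.3 and 47.9 TPM. No other library reached the lowest of these: among adult regions CBN came next, at 19.7, 8.50 and 26.00 TPM, then PVH, at 10.2 and 12.7 TPM. The other 12 regions had means from 0.702 TPM (VTA, 0.515, 1.11 and 0.478 TPM) to 4.55 TPM (DMH), and all neighbours among them overlapped. PVH stood above the other hypothalamic regions (2.27 to 11.5 TPM over the 5).

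The start regions of Agt and Gdf10 are shown because these genes had the widest ranges, with the largest levels in different systems. They are the 250 bases before the RefSeq start, read on the coding strand, from 5′ to 3′ in build GRCm38.p6, without transcribed bases: for Agt chr8:124569707-124569956 on the minus strand and for Gdf10 chr14:33923337-33923586 on the plus strand. Capitals mark the NFI half-site TTGGC (NFI factors act in astrocyte differentiation), the STAT palindrome TTCNNNGAA and the TATA box letters TATAAA, each searched on both strands; no pair of these overlapped.
Agt: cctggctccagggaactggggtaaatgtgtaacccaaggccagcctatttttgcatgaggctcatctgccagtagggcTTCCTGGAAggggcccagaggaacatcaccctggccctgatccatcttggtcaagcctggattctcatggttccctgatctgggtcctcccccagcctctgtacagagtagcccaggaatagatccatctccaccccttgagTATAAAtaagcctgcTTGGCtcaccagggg
Gdf10: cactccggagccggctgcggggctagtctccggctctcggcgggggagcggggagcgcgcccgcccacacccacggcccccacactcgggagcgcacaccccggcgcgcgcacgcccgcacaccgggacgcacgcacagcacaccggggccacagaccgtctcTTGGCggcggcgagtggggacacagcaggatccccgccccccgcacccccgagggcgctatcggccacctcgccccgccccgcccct
Agt held 1 NFI half-site, 1 STAT palindrome, 1 TATA match and 0 CpG, with 55.6% G and C. Gdf10 held 1 NFI half-site, no match to the other 2 motifs and 35 CpG, with 78.8% G and C; the median over 32851 promoters was 52.4% and 6 CpG. Over the 9 genes with an entry, TTGGC was found in 3 (Slc1a2, Agt, Gdf10), beside 41.5% of all promoters. TTCNNNGAA and TATAAA were each found in 2 (Slc1a3 and Agt), beside 7.02% and 12.4%. A match describes letters in the window and not a bound site.

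**Figure D3:**
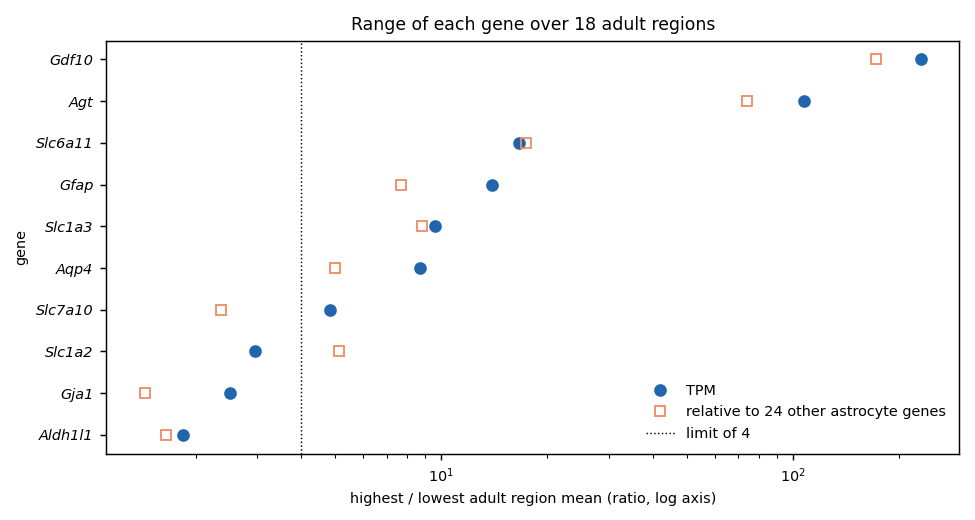
Top adult region mean divided by the bottom one (18 regions) for each gene, on a log axis, from TPM (filled circles) and from TPM divided in each library by the geometric mean of 24 other astrocyte genes (open squares); the dotted line is the limit of 4. Aldh1l1 and Gja1 stay under 4 on both scales, Slc7a10 falls from 4.84 to 2.35, and Slc1a2 rises from 2.95 to 5.11.

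To set the genes beside the astrocyte signal of each punch, each gene was also divided, within a library, by the geometric mean of the 24 other astrocyte genes, a scale chosen after the data were seen. On it Gja1 varied 1.44-fold and Aldh1l1 1.65-fold over the adult regions. Slc7a10 varied 2.35-fold and was no longer past the limit, and Slc1a2 varied 5.11-fold and was. The other 6 genes stayed past it, from 4.97-fold (Aqp4) through 7.71-fold (Gfap), 8.84-fold (Slc1a3), 17.4-fold (Slc6a11) and 74.2-fold (Agt) to 173-fold (Gdf10).

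Differences between systems were tested with edgeR's quasi-likelihood test on estimated counts of all genes, and a gene was called at a Benjamini-Hochberg adjusted p under 0.05 with a log2 fold change beyond 1. The test averages log2 levels with equal weight for each region, so a set can be called higher although a few regions outside it hold more TPM. The comparisons share libraries, since each region also belongs to the regions set against the others. Over the 18 adult regions, all 10 genes differed (adjusted p under 0.05 in the test of any difference), beside 82.4% of the 19980 genes tested; with limma on log2(TPM + 0.5) or log2(TPM + 0.1) Aldh1l1 did not pass (adjusted p = 0.138 and 0.182).

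In the hypothalamus against the other adult regions, 2 of 10 genes were called higher, beside 5.98% of all genes, and 1 lower, beside 2.69%. Agt rose most (319 against 106 TPM over region means; log2 fold change 2.32 ± 0.09 (SE), adjusted p = 3.17e-30). Slc6a11 rose as well (402 against 156 TPM; log2 fold change 1.75 ± 0.14 (SE), adjusted p = 1.28e-15). Gdf10 fell (log2 fold change -1.09 ± 0.19 (SE), adjusted p = 1.94e-06), a call that was lost with limma on log2(TPM + 0.1), at -0.98. The regions set against the hypothalamus include the cerebellar lobules, at means of 78.0 to 162 TPM of Gdf10, and CBN, at 18.1 TPM. The hypothalamic means, 2.27 to 11.5 TPM, overlapped those outside the cerebellum, from 0.702 TPM (VTA) to 4.30 TPM (FRP). Aldh1l1 (-0.05), Gfap (0.10) and Slc7a10 (0.13) had log2 fold changes near 0 that did not pass the adjusted p. Over the 10 genes the median was 0.12 on the log2 scale, beside 0 over all genes tested.

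In the hindbrain nuclei, 2 genes were called higher (background 4.99%) and 2 lower (background 2.65%). Slc6a11 (log2 fold change 1.24 ± 0.16 (SE), adjusted p = 1.78e-09) and Agt (log2 fold change 1.13 ± 0.10 (SE), adjusted p = 6.29e-15) were higher, although the mean TPM of Agt, 179, was close to that of the other regions, 163, which include both the hypothalamus and the low forebrain regions. With the regions as 2 groups, the log2 fold change of Agt was 0.24 (adjusted p = 0.729) and that of Slc6a11 0.75 (adjusted p = 0.140), and neither was called. Slc1a3 (log2 fold change -1.39 ± 0.07 (SE), adjusted p = 1.52e-23) and Gdf10 (log2 fold change -2.11 ± 0.23 (SE), adjusted p = 2.82e-11) were lower. Slc7a10 was 0.89 on the log2 scale (adjusted p = 6.99e-17), short of the fold limit. The oligodendrocyte markers summed to 10122 to 15342 TPM in these libraries, against 978 to 13774 TPM in the hypothalamus, and their part in the differences was not tested. The median of the 10 genes was 0.20 on the log2 scale, beside 0 over all genes tested.

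The cerebral cortex had 5 genes called lower, beside 7.83% of all genes, and none higher, beside 8.02%. Agt fell most (log2 fold change -4.39 ± 0.16 (SE), adjusted p = 7.22e-32), followed by Aqp4 (-1.46 ± 0.12, adjusted p = 4.10e-16), Gdf10 (-1.38 ± 0.23, adjusted p = 3.90e-07), Slc6a11 (-1.24 ± 0.20, adjusted p = 2.33e-07) and Slc7a10 (-1.18 ± 0.08, adjusted p = 1.52e-18). Slc1a2 was the one gene with a sizeable difference in the other direction, 0.99 ± 0.06, adjusted p = 1.37e-19, just short of the fold limit, and Gfap was just short of it below (-0.95 ± 0.13, adjusted p = 2.67e-09). Slc1a2 was called higher with DESeq2 and with its size factors in edgeR (1.01 each). Gfap was called lower with limma on log2(TPM + 0.5) and log2(TPM + 0.1) (-1.03 and -1.04). Slc1a3 held 221 against 288 TPM (log2 fold change 0.04 ± 0.06, adjusted p = 0.663). Across the 10 genes the median was -1.06 on the log2 scale, beside -0.03 over all genes tested. All 6 oligodendrocyte markers were called lower here (median log2 fold change -2.36), with sums of 640.1 to 2151 TPM in these libraries. Of 5 neuron markers 1 was called higher, and they summed to 3342 to 5321 TPM, against 1770.2 to 3172 TPM in the hypothalamus. The part of either in the differences was not tested.

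The cerebellar cortex had 3 genes called higher, beside 8.03% of all genes, and 2 lower, beside 9.71%. Gdf10 rose most (122 against 4.52 TPM; log2 fold change 5.05 ± 0.14 (SE), adjusted p = 3.61e-36), then Aqp4 (1.47 ± 0.08, adjusted p = 1.54e-22) and Slc1a3 (1.40 ± 0.05, adjusted p = 1.56e-30). Slc6a11 fell (log2 fold change -2.36 ± 0.17 (SE), adjusted p = 1.21e-17), and Slc1a2 was just past the fold limit (-1.01 ± 0.06, adjusted p = 4.50e-21). The Slc1a2 call was lost with no filter on low counts (-0.98), with limma (-0.83 at either pseudocount) and with fewer groups in the fit (-0.97). It was also lost without ACB replicate 2, CENT2 replicate 3, FL replicate 1, THy-PHy replicate 3 or VTA replicate 1 (-0.99 to -0.98). Gja1 (0.12), Agt (0.13) and Aldh1l1 (0.16) did not pass the adjusted p. For the 10 genes the median was 0.15 on the log2 scale, beside 0 over all genes tested. A list of 6 genes of Bergmann glia summed to 1044 to 1602 TPM here, 976 to 1099 TPM in CBN, 736 to 913 TPM in the hindbrain nuclei and 201 to 454 TPM in the cerebral cortex. In the cerebellar cortex 5 of the 6 were called higher (A2m, Hopx, Tnc, Timp4 and Sept4), beside 8.03% of all genes, and none lower. The median log2 fold change of this list was 2.05. The list of radial glia and progenitor genes summed to 393 to 837 TPM in the cerebellar cortex against 106 to 329.6 TPM in the cerebral cortex, and both lists hold Fabp7. The genes of this second list did not move together. In the cerebellar cortex 2 of the 6 were called higher (Pax6 and Vim) and 1 lower (Hes5), with a median log2 fold change of 0.13.

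Within the cerebellum, the nuclei were set against the cortical lobules above them. In CBN, 3 genes were called higher, beside 11.0% of all genes, and 2 lower, beside 5.80%. Slc6a11 (251 against 55.5 TPM; log2 fold change 2.57 ± 0.26 (SE), adjusted p = 8.26e-12) and Slc7a10 (1.28 ± 0.12, adjusted p = 1.29e-13) were higher, and Agt lay at the fold limit (1.00 ± 0.17, adjusted p = 2.47e-06), where the call was lost with no filter on low counts (0.99), with limma (0.79 at either pseudocount), with fewer groups in the fit (0.97), with regions as 2 groups (0.94), with the replicate block (0.96) and without any 1 of 13 libraries (0.76 without CBN replicate 2). Gdf10 (-2.51 ± 0.35, adjusted p = 1.78e-08) and Slc1a3 (-1.96 ± 0.13, adjusted p = 3.67e-18) were lower. Aqp4 was 141 TPM against 159 TPM (0.02 ± 0.18, adjusted p = 0.978). CBN libraries held summed choroid plexus markers of 3523 to 12662 TPM, against 6.87 to 3048 TPM (median 18.4 TPM) in the lobules. Oligodendrocyte markers summed to 11140.4 to 18327 TPM in CBN, against 1360 to 11701 TPM (median 2417 TPM) in the lobules. The part of either in these differences was not tested. Among the 10 genes the median was 0.54 on the log2 scale, beside 0.03 over all genes tested.

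In ACB, 5 genes were called lower, beside 5.41% of all genes, and none higher, beside 7.37%. Agt (log2 fold change -3.08 ± 0.24 (SE), adjusted p = 1.62e-16), Gdf10 (-1.70 ± 0.38, adjusted p = 2.16e-04), Aqp4 (-1.66 ± 0.20, adjusted p = 6.24e-10), Gfap (-1.28 ± 0.22, adjusted p = 1.58e-06) and Slc6a11 (-1.05 ± 0.32, adjusted p = 0.00628) were lower. Slc1a2 was 0.74 on the log2 scale (adjusted p = 3.61e-08), not past the fold limit. With regions as 2 groups Agt and Aqp4 were called, while Gdf10 (-3.86, adjusted p = 0.172), Gfap (-1.55, adjusted p = 0.0639) and Slc6a11 (-1.48, adjusted p = 0.229) had larger differences that did not pass the adjusted p. Without ACB replicate 2, Slc6a11 was not called (log2 fold change -0.87, adjusted p = 0.0721). Their median over the 10 genes was -0.88 on the log2 scale, beside 0 over all genes tested.

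In VTA, 2 genes were called higher, beside 6.76% of all genes, and 2 lower, beside 3.46%. Slc6a11 (log2 fold change 1.35 ± 0.25 (SE), adjusted p = 1.54e-05) and Agt (1.22 ± 0.16, adjusted p = 3.86e-09) were higher, and Gdf10 (-3.05 ± 0.47, adjusted p = 3.37e-07) and Slc1a3 (-1.19 ± 0.12, adjusted p = 4.17e-12) lower. The mean TPM of Agt was nonetheless about the same, 165.6 in VTA against 165.2 over the other regions, which include both the hypothalamus and the low forebrain regions. The calls of Slc6a11 and Agt were lost with limma on log2(TPM + 0.5) and log2(TPM + 0.1), where the median over all genes was -0.39 and -0.47. With the regions as 2 groups none of the 4 was called, beside 512 of 17454 genes called, against 2042 of 19980 in the main fit. Gdf10 (-5.15, adjusted p = 0.120) and Slc1a3 (-1.45, adjusted p = 0.0855) had larger differences there, and Slc6a11 (0.89, adjusted p = 0.402) and Agt (0.44, adjusted p = 0.759) smaller ones. Leaving out VTA replicate 3 took Agt below the fold limit (0.89), and leaving out replicate 1, with its high mitochondrial share, changed no call in this comparison. All 6 oligodendrocyte markers were called higher in VTA (median log2 fold change 1.81; sums of 7576 to 15189 TPM), and their part in the differences was not tested. The 10-gene median was 0.22 on the log2 scale, beside -0.01 over all genes tested.

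**Figure D4:**
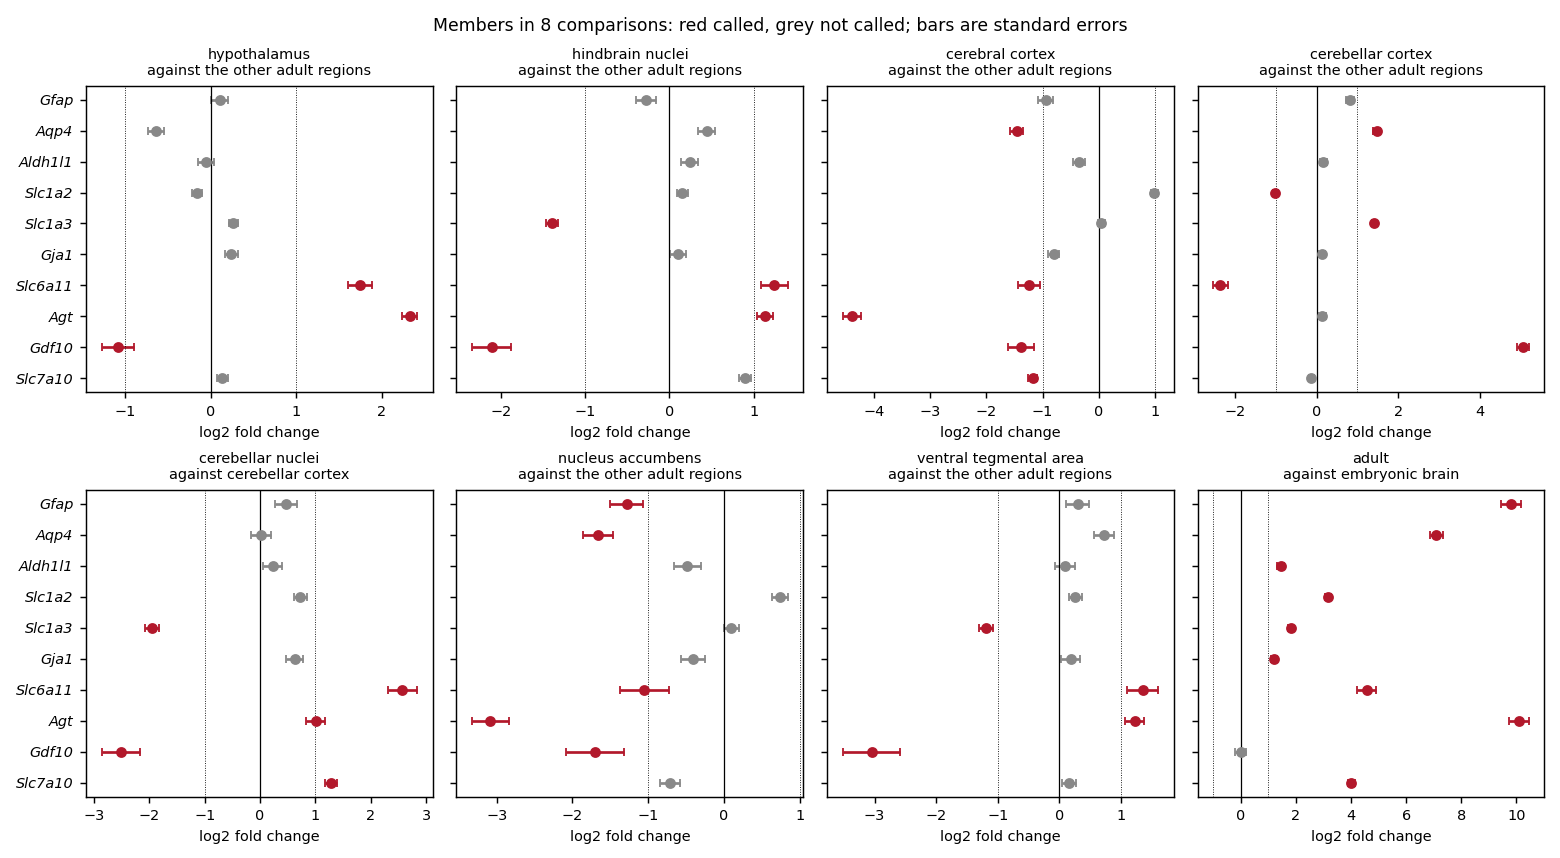
Log2 fold change (horizontal axis, bars are standard errors) of each gene in 8 comparisons, with called genes in red, genes not called in grey and dotted lines at 1 and -1; for adult against embryonic brain the points of Gfap and Agt depend on the count added to zeros. Gdf10 lies at 5.05 in the cerebellar cortex and below -1 in the other adult comparisons, Slc6a11 and Gdf10 are red in all 7 adult comparisons, and Aldh1l1 and Gja1 are grey in all 7.

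Counted over the 7 adult comparisons, Slc6a11 and Gdf10 were called in 7, Agt in 6, Slc1a3 in 4, Aqp4 in 3, Slc7a10 in 2, Gfap and Slc1a2 in 1, and Aldh1l1 and Gja1 in none. Every lower call of Gdf10 was against a set that held the cerebellar lobules. Gfap, with a 13.9-fold range over regions and 1 call, also varied between regions of the same system. In the cerebellar cortex its region means ran over 106 to 305 TPM and in the hypothalamus over 61.8 to 160.0 TPM, where DMH held 58.1, 55.3, 69.2 and 64.6 TPM and LHA 203, 175 and 103 TPM.

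Calls in the list of 24 other astrocyte genes ran from 0 to 6 in an adult comparison. In the hypothalamus 0 were called higher, beside 5.98% of all genes, and 1 lower, beside 2.69%, the latter being Dio2 (-1.87 ± 0.11, adjusted p = 2.62e-21), the deiodinase that activates thyroid hormone. In the hindbrain nuclei none were called, beside 4.99% higher and 2.65% lower over all genes. In the cerebral cortex, where 8.02% of all genes were higher and 7.83% lower, 2 of the list were higher, Mfge8 (1.42 ± 0.08, adjusted p = 4.61e-21) and Dio2 (1.33 ± 0.10, adjusted p = 1.02e-17), and 4 lower, led by Slc4a4 (-1.45 ± 0.07, adjusted p = 3.48e-25) and S100b (-1.23 ± 0.13, adjusted p = 9.58e-13). In the cerebellar cortex (8.03% and 9.71% of all genes) 2 were higher, Gpr37l1 (1.22 ± 0.06, adjusted p = 3.50e-27) and S100b (1.16 ± 0.09, adjusted p = 3.19e-17), and none lower. In CBN (11.0% and 5.80% of all genes) 4 were higher than in the lobules and none lower, led by Glul (1.25 ± 0.10, adjusted p = 2.07e-15) and Fgfr3 (1.12 ± 0.17, adjusted p = 1.13e-07). In ACB (7.37% and 5.41% of all genes) 1 was higher, Mfge8 (1.49 ± 0.13, adjusted p = 3.12e-14), and 4 lower, led by Atp1b2 (-1.69 ± 0.15, adjusted p = 3.81e-14) and S100b (-1.63 ± 0.22, adjusted p = 8.15e-09). In VTA (6.76% and 3.46% of all genes) 1 was higher, Atp1b2 (1.03 ± 0.11, adjusted p = 9.38e-11). The median log2 fold change of the list was -0.62 in the cerebral cortex and 0.38 in the hindbrain nuclei.

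Between the adult and the embryonic brain, 9 of the 10 genes were called higher in the adult, beside 19.9% of all genes, and none lower, beside 17.7%. Stage and preparation batch cannot be told apart, since adult and embryonic samples were collected in different batches. Gfap, Agt and Aqp4 were at or near the floor in the embryo: over the 9 embryonic libraries Gfap had 0 to 5 estimated counts and Agt 0 to 7, against 220 to 8480 and 49 to 6955 in adult libraries. Aqp4 had 10 to 59 counts, at 0.195 to 1.33 TPM, with a median of 0.548 over 9 libraries. For Gfap and Agt a fitted fold would depend on the count added to zeros and is not given.

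Slc6a11 (log2 fold change 4.56 ± 0.33 (SE), adjusted p = 4.56e-18), Slc7a10 (4.01 ± 0.13, adjusted p = 7.96e-33) and Slc1a2 (3.18 ± 0.11, adjusted p = 1.27e-31) were also lower in the embryo but measurable in each embryonic library. In the embryo Slc6a11 held 0.775 to 15.005 TPM, with a median of 8.65 over 9 libraries. Slc1a2 held 50.4, 59.4 and 48.04 TPM in H and 27.9, 27.5 and 25.9 TPM in THy-PHy. Slc1a3 (1.802 ± 0.09, adjusted p = 1.44e-25), Aldh1l1 (1.45 ± 0.13, adjusted p = 3.73e-14) and Gja1 (1.19 ± 0.12, adjusted p = 3.17e-13) differed least among the called genes. Slc1a3 held 90.5, 90.04 and 147 TPM in embryonic H, and the adult hindbrain region means were 88.9 to 116 TPM. In Gdf10 the log2 fold change was -0.01 ± 0.20 (SE), where the adult side averages the cerebellar cortex with regions far below it. The embryonic libraries, at 2.27 to 27.5 TPM, with a median of 11.3 over 9 libraries, lay below the adult cerebellar cortex. They lay above all VTA libraries (0.478 to 1.11 TPM) and within the span of other adult regions. The means of H (18.5 TPM) and THy-PHy (13.4 TPM) were above those of the adult hindbrain nuclei (2.28 TPM) and hypothalamus (5.11 TPM). The 6 oligodendrocyte markers were all called higher in the adult. Radial glia and progenitor genes summed to 847 to 3294 TPM in the embryonic libraries. The median log2 fold change of the 10 genes was 3.59, a value between Slc1a2 and Slc7a10 that the fitted folds of Gfap and Agt do not move, beside 0 over all genes tested. Further, 23 of the 24 other astrocyte genes were called higher in the adult, led by Gpr37l1 and Ntsr2 (adjusted p = 2.38e-45 and 3.34e-44), and 1 lower, Sox9 (-1.45 ± 0.11, adjusted p = 6.36e-18), a transcription factor also used by neural progenitors.

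Embryonic libraries of 1 region could differ widely. The M libraries held 139.9 and 22.1 TPM of Gja1, while both held 46.5 TPM of Aldh1l1, which is within the adult range. The H libraries held 3.33, 15.2 and 26.2 TPM of Aldh1l1, 0.775, 8.74 and 15.005 TPM of Slc6a11 and 27.5, 5.14 and 23.00 TPM of Gdf10, and the THy-PHy libraries 16.8, 8.46 and 3.88 TPM of Aldh1l1. H replicate 1, lowest in Aldh1l1 and Slc6a11 and highest in Gdf10, had the high mitochondrial share given above, the lowest total count of the 70 libraries and a summed meningeal marker level of 1835 TPM, against 724 and 1141 TPM in the other H libraries. Choroid plexus markers summed to 27.03 TPM in M replicate 1 and 1695 TPM in M replicate 2. Their part in these levels was not tested.

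The change from embryo to adult was also compared between the hypothalamus and the hindbrain. The difference of the changes was called higher for 2 of 10 genes, beside 6.36% of all genes, and lower for 1, beside 3.37%. Slc1a3 went from 45.3 TPM in THy-PHy to a mean of 278 TPM in the adult hypothalamus, whereas it was 109 TPM in embryonic H and 102 TPM in the adult hindbrain nuclei (difference of log2 fold changes 2.68 ± 0.17, adjusted p = 4.92e-17). Gdf10 went from 13.4 to 5.11 TPM in the hypothalamus and from 18.5 to 2.28 TPM in the hindbrain (1.63 ± 0.48, adjusted p = 0.00691). Without H replicate 1 the Gdf10 difference was 0.95 (adjusted p = 0.147) and not called, nor was it called with limma (1.13 and 1.26, adjusted p = 0.0941 and 0.0939). Agt was not called with edgeR but was with DESeq2 (1.88, adjusted p = 0.0364) and with limma (1.10 and 1.45, adjusted p = 0.0188 and 0.00434), on embryonic counts of 0 to 7. Aqp4 went from 0.747 to 51.8 TPM and from 0.504 to 84.7 TPM (-1.25 ± 0.42, adjusted p = 0.0182), and was not called without H replicate 1 (-1.13, adjusted p = 0.0676) or THy-PHy replicate 2 (-0.99, adjusted p = 0.103). Of the 6 oligodendrocyte markers, 5 were called lower in this difference, and their part in it was not tested. Of the 24 other astrocyte genes, 4 were called higher, led by Clu (2.06 ± 0.21, adjusted p = 2.55e-10) and Sox9 (1.40 ± 0.29, adjusted p = 2.25e-04), and 2 lower, Dio2 (-2.37 ± 0.57, adjusted p = 0.00112) and Acsbg1 (-1.19 ± 0.28, adjusted p = 9.41e-04).

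In mESC, Gja1 was the member with the highest level, at 76.1 and 78.5 TPM in line B6-1 and 49.8 and 43.3 TPM in line B6-2, within the range of the embryonic brain. Slc1a3 held 10.9 to 14.55 TPM, with a median of 12.5 over 4 libraries and Aldh1l1 3.42 to 4.10 TPM, with a median of 4.02 over 4 libraries. The remaining 7 genes did not exceed 0.322 TPM in any mESC library.

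The genes most alike to each member, by Pearson r over the 18 adult region means of log2(TPM + 1) among 13922 genes, differed between members, and no gene was among the closest 3 of more than 1 member. For Agt they were Sparc (r = 0.98), Ndrg2 (r = 0.97) and Nkx2-2 (r = 0.97); Sparc, a matricellular protein of glia, ran from 103.7 TPM in ACA to 1857 TPM in VMH. For Gdf10 they were Zic2 (r = 0.97), Iltifb (r = 0.97) and Zic5 (r = 0.97); Zic2 and Zic5 are zinc finger transcription factors of the cerebellum. For Slc6a11 they were Arhgap24 (r = 0.96), Rcn2 (r = 0.95) and Vwc2 (r = 0.95), and for Slc1a2 Mpped1 (r = 0.97), A830018L16Rik (r = 0.96) and Tmem44 (r = 0.96). For Slc1a3 they were Zc3h6 (r = 0.98), Zfc3h1 (r = 0.98) and Nelfa (r = 0.97), for Aqp4 Rassf6 (r = 0.97), Nudt22 (r = 0.97) and Mvp (r = 0.96) and for Gja1 Nadk2 (r = 0.96), Agtrap (r = 0.95) and Selenbp1 (r = 0.94). For Aldh1l1 they were Paqr8 (r = 0.93), St8sia1 (r = 0.93) and Pcyt2 (r = 0.92), for Slc7a10 Coq7 (r = 0.95), Gm2a (r = 0.94) and Entpd5 (r = 0.94) and for Gfap Ctdsp1 (r = 0.85), Gclm (r = 0.83) and Macrod1 (r = 0.83), the lowest values of the 10 genes. None of the 30 genes was on the list of other astrocyte genes; the 18 regions share mice and differ in tissue composition. Among the members themselves, the highest r were 0.85 (Agt and Gja1), 0.83 (Aldh1l1 and Aqp4) and 0.82 (Gja1 and Slc7a10), and Slc1a3 and Slc6a11 had -0.57.

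At the transcript level, as estimated from 33-base single reads, 1 protein-coding transcript had the largest share of each gene in every adult region mean. Aqp4, Agt and Gdf10 had 1 annotated transcript each, and Slc6a11-201 held at least 99.6% of Slc6a11 in every adult region. Slc1a2-202 held 92.97% to 97.5%, and Slc1a3-201 95.5% to 98.7% in adult regions and 78.1% to 85.9% in embryonic ones, where the retained-intron transcripts Slc1a3-204 and Slc1a3-205 reached 11.4% and 9.29%. Gfap-201, the canonical form, held 66.1% to 93.9% of Gfap, and the non-coding Gfap-203 up to 30.01% in VTA. A VTA library alone reached 58.9%. Aldh1l1-201 held 77.2% to 93.4% of Aldh1l1 over regions but 33.4% in 1 VTA library, where the non-coding Aldh1l1-205 held 48.9%. The second coding form of Gja1, Gja1-203, ranged from 0.0552% in CBN to 25.7% in ACB, with libraries of 1 region as far apart as 0 and 27.2% in DVC, so that most regions could not be ordered. Slc7a10-204 ranged from 0% in PVH to 23.6% in ENT beside the main form Slc7a10-201, with ENT libraries from 0.00451% to 35.4% and a DMH library at 41.3%, so that its regions could not be ordered either.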

How the data were processed

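RNA of 70 libraries was sequenced by the authors (strand-specific mRNA, single reads of 33 cycles). Per the labels and the study's methods, reads were demultiplexed with CASAVA 1.8.2 and pseudoaligned with kallisto to mouse GRCm38 transcripts. The deposited files hold estimated counts per transcript and TPM per transcript and gene, as the authors' quantification gave them. Reads this short split transcripts of 1 gene uncertainly, so gene sums were preferred.

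Estimated counts were summed per gene (107987 of 109282 transcripts matched; unmatched ones held 0.418% to 0.767% of counts) and rounded. One edgeR 4.0.16 fit (R 4.3.3; TMM, filterByExpr, quasi-likelihood F-test) with a coefficient per group covered 19980 genes, with Benjamini-Hochberg adjustment over all of them. A gene was called at adjusted p under 0.05 and log2 fold change beyond 1. Levels, ranges and likeness used TPM in Python 3.11.15. Counting error is largest for members with few reads: in the embryo Gfap (0 to 5 counts), Agt (0 to 7) and Aqp4 (10 to 59), and in low adult libraries Gdf10 (from 13) and Agt (from 49), so the Gdf10 range over regions rests on a small denominator. The alternatives were DESeq2 1.42.0 and its size factors, limma 3.58.1 on log2(TPM + 0.5) and log2(TPM + 0.1), no filter on low counts, fewer groups in the fit, regions as 2 groups, a replicate block and leaving out each library.

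Groups and replicate numbers came from the sample descriptions. Libraries with the same number in different regions did not deviate together (669 pairs, median r 0.00804, lowest -0.431), so the numbers were not taken as pairing. Libraries of a region were pools of mice, and mice contributed to several regions, so p-values measure the spread between these pools. The study gives its preparation batches in a supplementary table that was not matched to libraries here, and the sample labels give none. Values within batches were therefore not computed. The smallest chi-square per gene among 74 replicate pairs was 2.55, so none was closer than counting noise.

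The members and the marker lists were chosen with earlier results of these data known. Named genes were the 10 members, the 3 genes closest to each over regions among those with at least 5 TPM in 1 adult region and, from the 24 other astrocyte genes, up to 2 called with the largest change each way per comparison. The scripts were tested on simulated data. Promoter sequence came from RefSeq (GRCm38.p6), where 9 of the 10 genes had an entry.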

Additional observations from a re-analysis of the deposited data

Results flagged for a closer look

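In groups of 4 libraries, 2 of 50 sets of values had a library set apart from the others of its region; chance flags about 1 in 20 such groups. Slc1a3 was 229 TPM in DMH replicate 2, beside 282 to 293 TPM in the other 3 DMH libraries. Gja1 was 151 TPM in CUL4-5 replicate 3, beside 187 to 193 TPM in the other 3.

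For 3 genes the change from embryo to adult differed between the hypothalamus and the hindbrain by the test of the difference itself (edgeR, hypothalamus minus hindbrain). The difference was 2.68 on the log2 scale for Slc1a3 (adjusted p = 4.92e-17), 1.63 for Gdf10 (adjusted p = 0.00691) and -1.25 for Aqp4 (adjusted p = 0.0182). The embryonic side rests on 3 THy-PHy and 3 H libraries, and the Gdf10 and Aqp4 calls were lost without H replicate 1.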

How the results depend on the processing

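Of 870 values recomputed under the planned settings, 833 kept their call, as did 6559 of 6600 when 1 library was left out; no value changed direction where it was called. With regions as 2 groups, which puts the differences among regions into the error, 2 genes were called in the hindbrain nuclei, 2 in ACB and 0 in VTA. Over all genes, that setting called 1341 of 16402 in the hindbrain nuclei, 1174 of 17454 in ACB and 512 of 17454 in VTA. The main fit called 1527, 2553 and 2042 of 19980. In VTA 2 were called by limma on log2(TPM + 0.5), beside 2246 of 20577 genes, and 2 on log2(TPM + 0.1), beside 3163 of 20577. There the median log2 fold change over all genes was -0.39 and -0.47, against -0.01 in the main fit. For these changes in the counts of called genes the cause was not tested. Limma on log2(TPM + 0.1) also left 2 genes called in the hypothalamus, without Gdf10, beside 1657 of 20577 genes. The replicate block, with numbers that were not taken as pairing, changed 1 call, Agt in CBN against the lobules (0.96 on the log2 scale).

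Leaving out 1 library at a time, the counts of called genes were 3 to 3 in the hypothalamus, 4 to 4 in the hindbrain nuclei, 5 to 6 in the cerebral cortex, 4 to 5 in the cerebellar cortex, 4 to 5 in CBN, 4 to 5 in ACB, 3 to 4 in VTA, 8 to 9 between adult and embryo, 2 to 4 for the difference of changes and 10 to 10 for any difference; 7 genes stayed region-restricted. Agt in CBN was not called without CBN replicate 2 (0.76) or, at 0.97 to 1.00, without ACB replicate 2, CENT2 replicate 2 or 4, CUL4-5 replicate 1, 3 or 4, FL replicate 1, 2 or 4, THy-PHy replicate 3, UVU replicate 3 or VTA replicate 1. Slc1a2 in the cerebral cortex passed the fold limit without any 1 of 13 libraries (1.00 to 1.01), and Gfap did so below without ACA replicate 3 (-1.14). Gja1 between adult and embryo was not called without F replicate 1 or M replicate 2 (0.98 each). A limit of 3 gave 7 restricted genes and a limit of 8 gave 6, without Slc7a10. For the difference of changes, Aldh1l1 was called without THy-PHy replicate 1 (1.01) and Slc7a10 without H replicate 1 (1.00). Gfap and Agt in the embryo, and Gdf10 in low adult regions, are limited by their counts.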
